A study of Homo sapiens with 24 samples.

Results

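The change in gene expression was described in SCaBER cells transfected with a small interfering RNA (siRNA) against FOXA1, compared with SCaBER cells transfected with a control siRNA. SCaBER is an established human bladder cancer cell line of the basal/squamous (Ba/Sq) subtype. The members were chosen by their labels: 2 libraries of the siFOXA1 group and 2 of the siControl group, 4 of the 24 libraries of the series. In the labels the control is siControl number 2 and the FOXA1 siRNA is siFOXA1 number 1, and the replicate number is an experiment batch. Both groups were reverse transfected with the same lipid reagent and harvested after a short-term knock-down. RNA was read by 3′ RNA-seq, in which oligo-dT priming gives reads from the ends of polyadenylated transcripts. A single siRNA was used against FOXA1, so loss of FOXA1 and any other action of that siRNA cannot be told apart. The other 8 SCaBER libraries entered the fit only to estimate the spread.

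FOXA1 is a forkhead transcription factor that opens chromatin at enhancers and, in the urothelium, belongs to the luminal differentiation programme together with GATA3 and PPARG. Basal/squamous bladder tumours express little FOXA1 and carry keratins, laminins and integrins of basal cells, as well as inflammatory genes. Type I and type III interferons signal through JAK kinases to a complex that holds STAT2 and IRF9 and binds interferon-stimulated response elements in the promoters of antiviral genes. Proliferating cells express S phase genes under E2F factors and G2/M genes through a cell cycle genes homology region.

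The 4 libraries held between 4519668 and 5130395 counts, and 3 counts, the upper limit for a gene at 0, amounted to between 0.567 and 0.68 CPM (counts scaled to a library size of 1e+06 reads). Transcripts of the mitochondrial genome took 9.74% and 10.7% of the siControl counts and 12.9% and 12.5% of the siFOXA1 counts. The part of this shift in the results below was not tested. The label of the line was checked with markers: 10 of 10 basal/squamous markers were above 10 CPM, and their summed level was 4406 and 4154 CPM in siControl and 5985 and 5672 CPM in siFOXA1. These 10 markers did not move together. KRT17 rose and KRT5 fell, as given below, and EGFR overlapped between the groups. Of 8 luminal markers 3 were at 0 in the 4 libraries, and the sum of all 8 was between 30.1 and 51 CPM. Of 21 markers of fibroblasts, leukocytes and endothelium, 14 were at 0. The summed level of the 7 fibroblast markers, 5 of them at 0, was 17.7 and 21.9 CPM in siControl and 35 and 45.1 CPM in siFOXA1, and it was at most 3.87 CPM for leukocytes and 3.39 CPM for endothelium. The part of the fibroblast markers in the results was not tested.

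FOXA1 (chr14:37589552-37595249 in GRCh38.p14) was near the limit of detection in this line, with 20 and 28 counts under siControl and 4 and 6 under siFOXA1 (3.78 and 5.59 against 0.816 and 1.36 CPM). Both siFOXA1 libraries lay below both siControl libraries. The log2 fold change was -2.09 ± 1.23 (standard error, SE), with an adjusted p of 0.272 in edgeR's quasi-likelihood test, so a loss of the FOXA1 transcript was not established at this depth. ZBED2, a zinc finger factor of the basal network, had 19.1 and 19.2 CPM in the siControl libraries and 20.4 and 19.1 CPM in the siFOXA1 libraries, and the groups overlapped (log2 fold change 0.05 ± 0.43, adjusted p = 0.965).

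Of 58721 genes in the table, 13129 had enough counts to be tested. Calls were made at an adjusted p (Benjamini-Hochberg) below 0.05. By this rule 2341 genes were called, 17.8% of those tested. Of these, 1144 were higher under siFOXA1 (8.71%) and 1197 were lower (9.12%). At least a 2-fold change was reached by 1071 called genes, 467 higher and 604 lower, and at least a 4-fold change by 107 and 122. The median log2 fold change was 0.89 among genes called higher and -1.01 among genes called lower, beside -0.02 over all genes tested. All 2341 called genes moved in the same direction in both replicate pairs, and in 2337 the 4 libraries did not overlap between the groups, against 7264 (55.3%) of all genes tested. The same libraries made the calls, so neither count is independent of them. Calls depended on level: 2.13% of the 4172 genes under 10 CPM in the higher group were called, 18.6% of the 6670 genes between 10 and 100 CPM, and 44.2% of the 2287 genes of at least 100 CPM. Higher calls made up 48.9% of all calls, but 39.9% when libraries were scaled by their totals alone and 31.2% on the deposited TPM values (transcript counts scaled per library), where the median of all genes lay at -0.13.

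**Figure D1:**
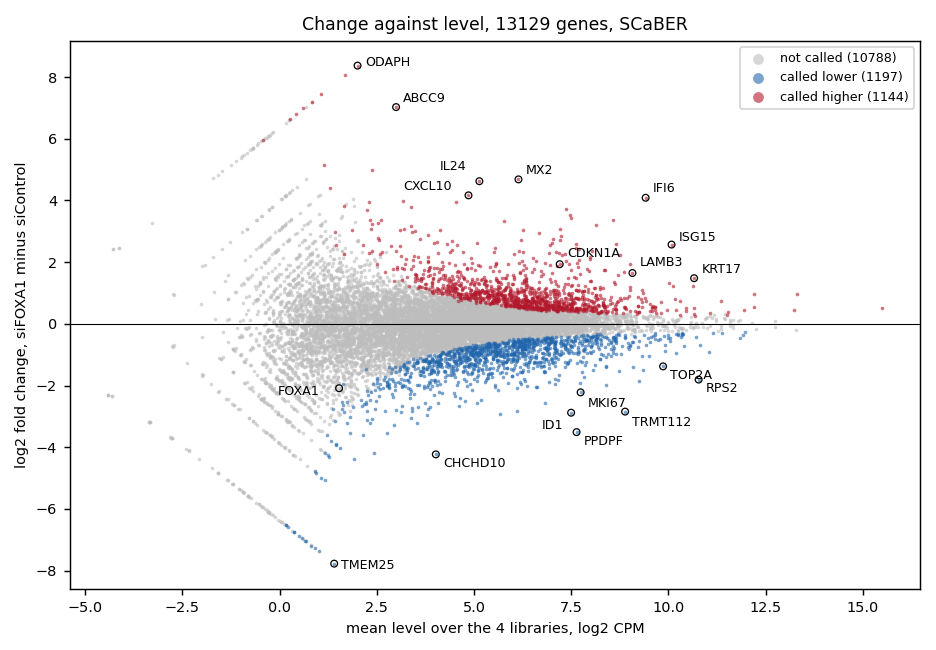
Change of each tested gene (vertical axis, log2 fold change of siFOXA1 minus siControl) against its mean level over the 4 libraries (horizontal axis, log2 CPM). Red points are the 1144 genes called higher, blue points the 1197 called lower and grey points those not called. The 5 tested genes with no count in the 4 libraries are not drawn. FOXA1 lies among uncalled genes of low level.

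The calls were read through 44 lists of genes with a shared role, of which 41 had at least 10 tested members. The lists were chosen with earlier results of these data known, so their ranking is not independent of these data. Among those 41 lists the highest medians belonged to interferon antiviral effectors (1.81), nucleic acid sensing (0.94) and immune checkpoint and adhesion ligands (0.88). The lowest belonged to mitotic genes (-1.21), DNA repair (-1.14) and DNA replication (-1.06). In these 3 lists, 77 of 95 tested members were lower and 0 were higher. Over all genes tested 17.8% were called, and some lists lay near or below this share. Among them were the nuclear-encoded respiratory chain (20.3%), cytosolic ribosomal proteins (19.2%) and translation factors (18.75%). Squamous differentiation genes and TGF-beta and BMP targets (12.5% each), epithelial-mesenchymal markers (8.33%) and proteasome subunits (6.45%) lay below it. Having calls is thus not particular to these lists. The share of 17.8% was not matched for level. Among genes of at least 100 CPM in the higher group 44.2% were called, and lists of abundant genes were not compared with that share.

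**Figure D2:**
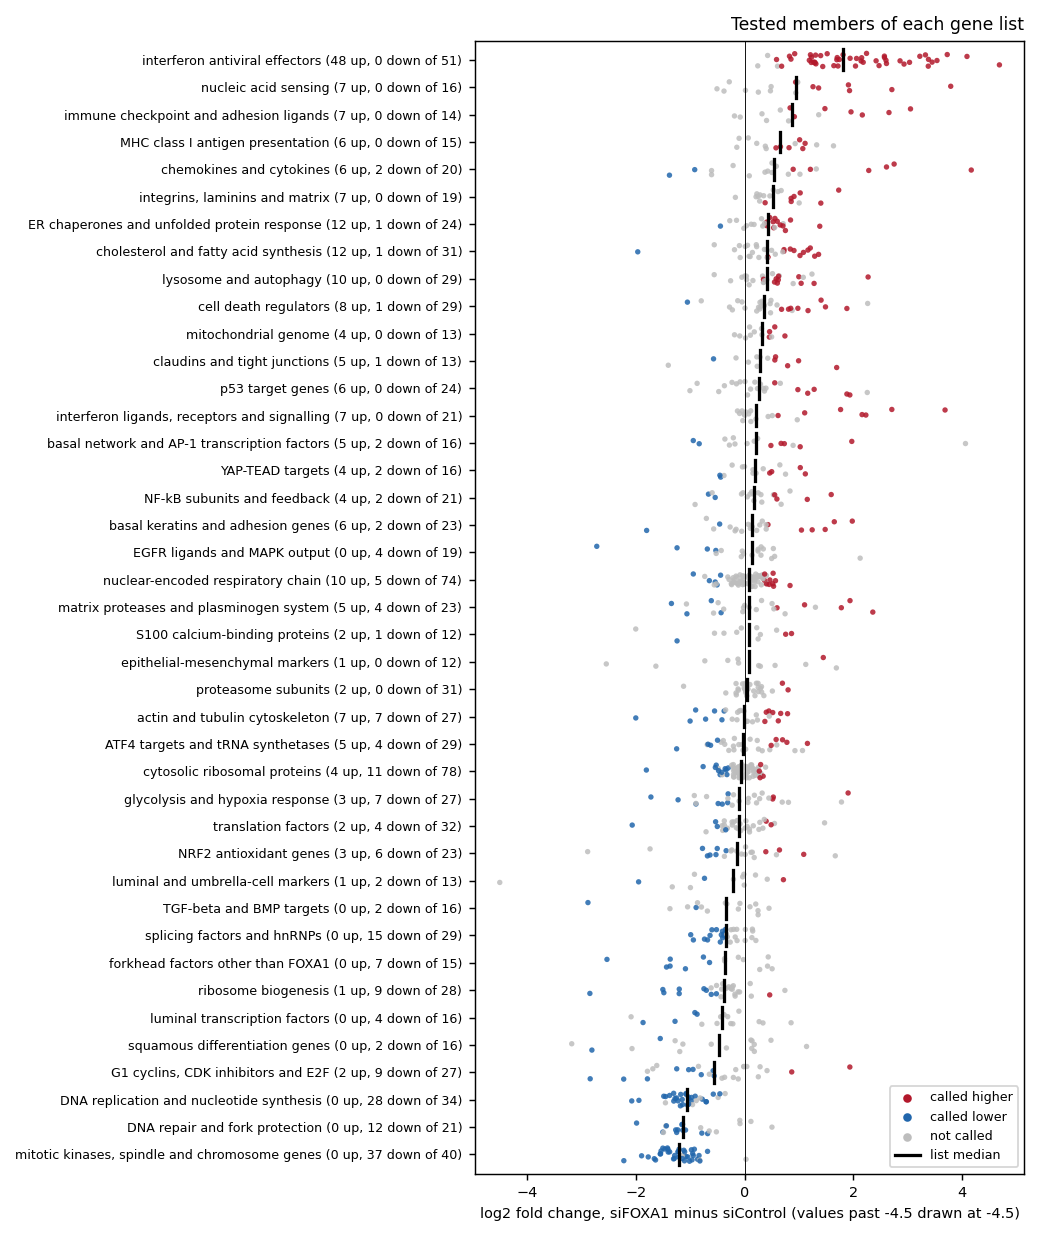
Log2 fold change (horizontal axis, siFOXA1 minus siControl) of every tested member of the 41 lists with at least 10 tested members, ordered by list median (black bar). Red points were called higher, blue points called lower and grey points not called, with the counts given beside each name. Interferon effectors stand at the top and the mitotic, repair and replication genes at the bottom.

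Of 51 tested antiviral effector genes induced by interferon, 48 rose and 0 fell, 43 of them at least 2-fold, and the siFOXA1 libraries lay above the siControl libraries for all 51. The 3 members not called were TRIM25 (log2 fold change 0.24), SHISA5 (0.42) and IFIT5 (0.60). ISG15 (chr1:1013497-1014540 in GRCh38.p14), a ubiquitin-like modifier, had 304 and 321 CPM in the siControl libraries and 1401 and 2309.9 CPM in the siFOXA1 libraries, a log2 fold change of 2.57 ± 0.16 (adjusted p = 2.49e-13). RSAD2, the radical SAM enzyme viperin, had 28 and 28.5 CPM in the siControl libraries and 242 and 414 CPM in the siFOXA1 libraries (log2 fold change 3.54 ± 0.25, adjusted p = 1.19e-12). OAS2, which makes 2-5A from double-stranded RNA, had 24.4 and 36.5 CPM in the siControl libraries and 287 and 377 CPM in the siFOXA1 libraries (3.45 ± 0.24, adjusted p = 1.50e-12). In each of these genes both siFOXA1 libraries were several-fold above both controls, with the second above the first.

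Other effectors with large folds included GTPases and membrane proteins. The dynamin-like GTPase MX2 had 2.46 and 8.19 CPM in the siControl libraries and 112 and 159.9 CPM in the siFOXA1 libraries (log2 fold change 4.68 ± 0.38, adjusted p = 2.26e-11), and its relative MX1 had 55 and 78.7 CPM in the siControl libraries and 578 and 808 CPM in the siFOXA1 libraries (3.38 ± 0.26, adjusted p = 7.04e-12). IFI6, a mitochondrial survival factor, had 48.3 and 104 CPM in the siControl libraries and 1087 and 1492 CPM in the siFOXA1 libraries (4.09 ± 0.33, adjusted p = 2.26e-11). IFI44L had 13.6 and 32.7 CPM in the siControl libraries and 255 and 356 CPM in the siFOXA1 libraries (3.72 ± 0.32, adjusted p = 1.30e-10). In all 4 of these genes the lower siFOXA1 library was several-fold above the higher siControl library, whereas the abundant IFITM3 and IFIT3 had smaller folds. IFITM3, which blocks viral entry at endosomes, had 896 and 1019 against 2153 and 2339 CPM (log2 fold change 1.23 ± 0.11, adjusted p = 6.30e-10). IFIT3 had 542 and 645 against 1223 and 1722 CPM (log2 fold change 1.31 ± 0.15, adjusted p = 2.44e-08). The second replicate exceeded the first for 46 of the 51 genes under siFOXA1 and for 36 under siControl. Leaving out any 1 of the 4 libraries left between 45 and 47 members called higher, with list medians from 1.62 to 2.08. Equal replicate numbers mark an experiment batch, and the list median was 1.76 within the first batch and 1.88 within the second.

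Promoter sequence is shown for the antiviral genes with the smallest p, because their promoters are the known site of action of the interferon-activated complex that holds STAT2 and IRF9. RefSeq sequences (GRCh38.p14, 250 bases before to 50 after the start) were matched to 9419 of the 13129 tested genes. The core of the interferon-stimulated response element, searched as GAAANNGAA on both strands, was in 27 of 41 effector promoters (65.9%), 11.9% of 915 promoters of genes called higher, 5.04% of 913 of genes called lower and 6.02% of 7591 of genes not called. Over all 27305 promoters in the table the share was 8.29%. Most effectors were called higher, so their promoters lie largely within those of genes called higher. The gamma-activated site, searched as TTCNNNGAA, which can overlap the response element, was in 9 of the 41 (22%), against 7.32%, 5.59% and 6.17% of genes called higher, lower and not called. Of the 12 genes called higher with the smallest p, 5 held a match of the response element before the start. They are printed 5′ to 3′ on the strand of the gene, with the match nearest the start, or its reverse complement, in capitals.
DDX60L (chr4:168480509-168480567, minus strand): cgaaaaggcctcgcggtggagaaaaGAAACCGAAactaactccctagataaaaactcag
IFIH1 (chr2:162318685-162318730, minus strand): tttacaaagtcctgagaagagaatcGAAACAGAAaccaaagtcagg
IFIT1 (chr10:89392496-89392554, plus strand): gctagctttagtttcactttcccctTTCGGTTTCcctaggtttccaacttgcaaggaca
ISG15 (chr1:1013371-1013429, plus strand): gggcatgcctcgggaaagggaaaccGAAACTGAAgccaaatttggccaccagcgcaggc
RSAD2 (chr2:6865781-6865839, plus strand): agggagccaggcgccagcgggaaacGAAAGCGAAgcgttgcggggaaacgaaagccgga
The DDX60L match is a GAAACCGAA core 50 bases before the start, IFIH1 held 4 matches in its promoter, ISG15 held 3, DDX60L and IFIT1 held 2, and RSAD2 held 1. A match describes letters in this window and not binding.

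Of 21 tested interferon ligands, receptors and signalling genes, 7 rose and 0 fell (median 0.21). STAT2, the transactivating subunit of the complex at the response element, had 21.2 and 18.2 CPM in the siControl libraries and 109 and 148 CPM in the siFOXA1 libraries (log2 fold change 2.71 ± 0.22, adjusted p = 2.26e-11). IRF9, its DNA-binding partner, had 3.02 and 5.39 CPM in the siControl libraries and 13.7 and 15 CPM in the siFOXA1 libraries (1.76 ± 0.59, adjusted p = 0.0326), and its call was lost without any 1 of the 4 libraries, with adjusted p from 0.0592 without the second siControl library to 0.236 without the first. SOCS3, a feedback inhibitor of JAK kinases, had 16.2 and 16.8 against 33.9 and 37.2 CPM (1.10 ± 0.26, adjusted p = 0.00201). IRF1, which is induced mainly by interferon gamma, had 233 and 214 CPM in the siControl libraries and 222 and 232 CPM in the siFOXA1 libraries, and the groups overlapped (0.02 ± 0.14, adjusted p = 0.944). Without the second siControl library or either siFOXA1 library, 4 of the 21 were called, and on the deposited TPM also 4. The median was 0.48 without the second siControl library.

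Among the ligands, a type III interferon was called. IFNL1 had 7 and 0 counts under siControl and 44 and 39 under siFOXA1 (log2 fold change 3.68 ± 1.11, adjusted p = 0.0178). This call was lost without the second siControl library (adjusted p = 0.171) and without either siFOXA1 library (0.0527 and 0.0539). IRF7, the factor that amplifies interferon production, had 3.78 and 6.59 against 12.4 and 34 CPM (2.16 ± 0.61, adjusted p = 0.0103), and its call was lost without the first siControl library (0.126) and without the second siFOXA1 library (0.308). For IFNL1 and IRF7 the groups did not overlap.

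Among cytosolic sensors of nucleic acids and their adaptors, 7 of 16 tested genes rose and 0 fell, with a median of 0.94 (0.55 on the deposited TPM). IFIH1, the sensor of long double-stranded RNA also called MDA5, had 35.7 and 43.5 CPM in the siControl libraries and 221 and 296 CPM in the siFOXA1 libraries (log2 fold change 2.71 ± 0.18, adjusted p = 5.10e-13). DDX58, the RNA sensor RIG-I, had 71.6 and 70.9 against 173 and 193 CPM (1.36 ± 0.16, adjusted p = 1.14e-07), and the libraries did not overlap. PNPT1, the mitochondrial polynucleotide phosphorylase, had 33.1 and 32.7 against 101 and 147 CPM (1.91 ± 0.21, adjusted p = 1.75e-08). AIM2, a sensor of cytosolic DNA, had 43.8 and 51.9 against 112 and 117 CPM (1.26 ± 0.18, adjusted p = 3.52e-06). ZBP1, a sensor of Z-form nucleic acids, had 0.378 and 2.40 against 13.3 and 25.4 CPM (3.79 ± 0.87, adjusted p = 0.00188), and its call was lost without the second siFOXA1 library (adjusted p = 0.0789). CGAS, the enzyme that makes cyclic GMP-AMP on DNA, was not called (50.2 and 70.3 against 41.6 and 57.6 CPM, log2 fold change -0.28 ± 0.21, adjusted p = 0.417), and its libraries overlapped.

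Of 15 tested genes of class I antigen presentation, 6 rose and 0 fell, with a median of 0.66. Without the second siFOXA1 library 4 were called and the median was 0.31, without the first siControl library 4 were called, and on the deposited TPM 3 were. The immunoproteasome subunit PSMB9 had 72 and 81.1 CPM in the siControl libraries and 152 and 157 CPM in the siFOXA1 libraries (log2 fold change 1.01 ± 0.17, adjusted p = 2.69e-05). The proteasome activator subunit PSME1 had 247 and 227 against 355 and 353 CPM (log2 fold change 0.58 ± 0.13, adjusted p = 0.00104). Its partner PSME2 had 91.4 and 87.8 against 142 and 142 CPM (log2 fold change 0.66 ± 0.17, adjusted p = 0.00509). These 3 genes act before peptides reach the class I molecule, and each was higher in both siFOXA1 libraries. NLRC5, the transactivator of class I genes, had 19.1 and 19.6 against 39.4 and 44.2 CPM (1.11 ± 0.27, adjusted p = 0.00266), and on the deposited TPM its adjusted p was 0.0621. B2M, the light chain, had 51.6 and 101 against 91.2 and 178 CPM (adjusted p = 0.0197), with overlapping libraries, and its call was lost without the first siControl library (0.393), without the second siFOXA1 library (0.648) and in DESeq2 (0.197).

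Of 14 tested ligands by which epithelial cells meet lymphocytes, 7 rose and 0 fell. LGALS9, galectin-9, had 16.4 and 16.6 CPM in the siControl libraries and 138 and 136 CPM in the siFOXA1 libraries (log2 fold change 3.05 ± 0.33, adjusted p = 1.09e-08). The checkpoint ligand CD274 (PD-L1) had 3.40 and 5.59 CPM in the siControl libraries and 24.1 and 32.7 CPM in the siFOXA1 libraries (2.65 ± 0.47, adjusted p = 7.24e-05), and PDCD1LG2 (PD-L2) had 4.34 and 4.19 against 14.9 and 23.6 CPM (2.16 ± 0.46, adjusted p = 7.10e-04). The adhesion molecule ICAM1 had 25.3 and 13.4 against 73.2 and 77.3 CPM (1.96 ± 0.29, adjusted p = 6.18e-06), and the death ligand TNFSF10 (TRAIL) had 111 and 97.8 against 217 and 364 CPM (1.48 ± 0.19, adjusted p = 3.65e-07). The poliovirus receptor PVR had 118 and 130.4 against 245 and 224 CPM (0.91 ± 0.15, adjusted p = 2.80e-05). In all 6 of these genes the siFOXA1 pair was higher than the siControl pair. The seventh, CD58, was close to the threshold (adjusted p = 0.0456) and lost its call without the first siControl library (0.474) or the second siFOXA1 library (0.341).

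Chemokines moved in both directions. Of 20 chemokines and cytokines tested, 6 were higher and 2 lower. CXCL10 and CXCL11, ligands of the chemokine receptor CXCR3 of T cells, both rose. CXCL10 had 1.13 and 4.99 CPM in the siControl libraries and 31.4 and 78.5 CPM in the siFOXA1 libraries (log2 fold change 4.17 ± 0.52, adjusted p = 2.72e-07). CXCL11 had 33.2 and 34.3 CPM in the siControl libraries and 181 and 273 CPM in the siFOXA1 libraries (2.75 ± 0.21, adjusted p = 1.15e-11). The neutrophil chemokines CXCL1 and CXCL8, which act on CXCR2, both fell. CXCL1 had 263 and 273 CPM in the siControl libraries and 136 and 148 CPM in the siFOXA1 libraries (-0.92 ± 0.14, adjusted p = 8.69e-06). CXCL8 had 34.6 and 42.1 CPM in the siControl libraries and 12.2 and 17.2 CPM in the siFOXA1 libraries (-1.38 ± 0.31, adjusted p = 0.00134). The groups overlapped in none of these 4 genes. IL23A, the p19 subunit of interleukin-23, had 3.78 and 4.99 against 27.7 and 25.9 CPM (2.61 ± 0.38, adjusted p = 3.02e-06), and IL11 had 6.42 and 4.99 against 31 and 24.7 CPM (2.28 ± 0.44, adjusted p = 2.25e-04). IL24, a cytokine of the interleukin-10 family outside this list, had 2.08 and 3.39 CPM in the siControl libraries and 87.3 and 48.1 CPM in the siFOXA1 libraries (4.62 ± 0.44, adjusted p = 1.07e-09).

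The subunits and feedback genes of NF-kB showed no common direction, with 4 of 21 higher, 2 lower and a median of 0.17. SOD2, the mitochondrial superoxide dismutase, had 32.5 and 30.9 against 80.1 and 111 CPM (log2 fold change 1.59 ± 0.21, adjusted p = 8.92e-07), and the ubiquitin-editing enzyme TNFAIP3 (A20) had 122 and 128 against 183 and 184 CPM (0.55 ± 0.14, adjusted p = 0.0045). The other 4 calls, NFKB2 and TRAF1 higher and TNFAIP2 and BCL3 lower, had adjusted p between 0.0169 and 0.0473. Leaving out a library left 3 higher and 1 lower (the first siControl or the second siFOXA1 library) or 2 higher and 0 lower (the others), and the median was 0.31 without the first siControl library, 0.26 without the second siFOXA1 library and 0.03 on the deposited TPM. The NF-kB motif GGGANTTTC was in 1.64% of promoters of genes called higher, 0.876% of genes called lower and 1.04% of genes not called.

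**Figure D3:**
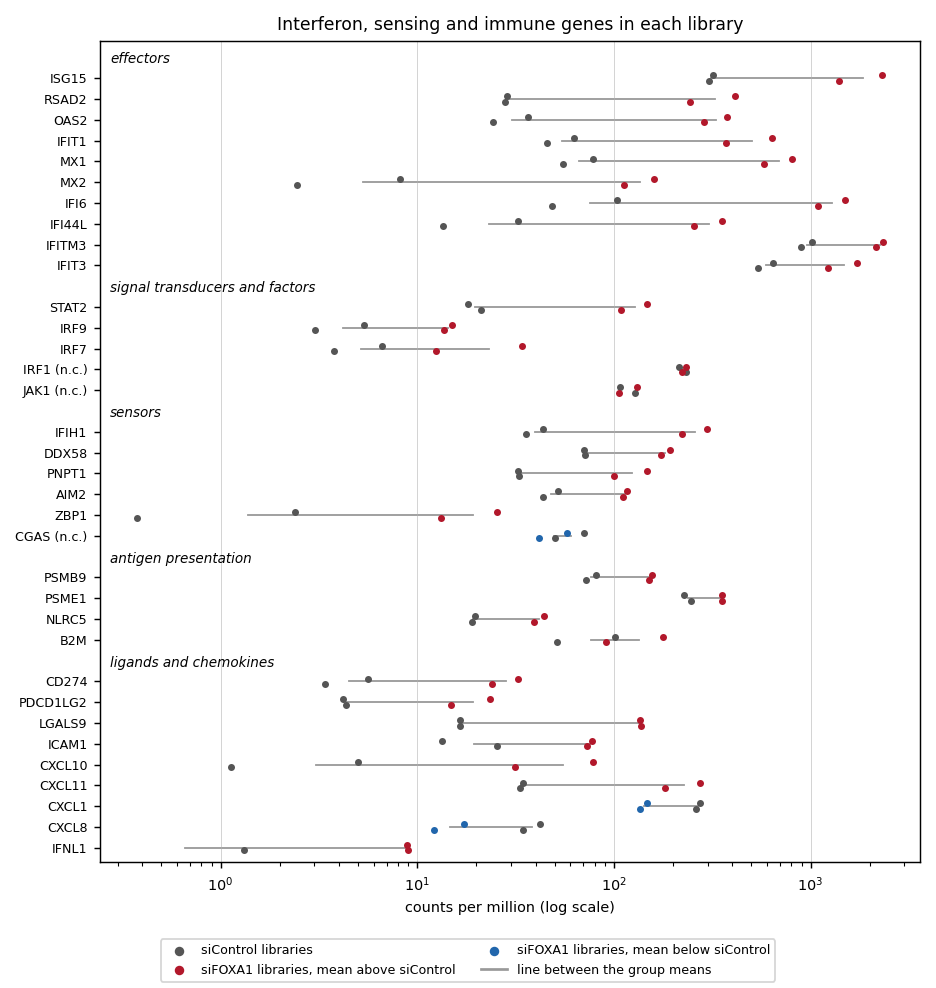
Level of interferon, sensing, antigen presentation and chemokine genes (rows) in each of the 4 libraries (horizontal axis, CPM on a log scale), with siControl in grey and siFOXA1 in red where its mean is higher and in blue where it is lower. Names marked n.c. were not called. The siControl library in which IFNL1 had 0 counts cannot be drawn on the log axis. CXCL1 and CXCL8 lie in the opposite direction to CXCL10 and CXCL11.

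Genes of DNA replication and nucleotide synthesis fell as a group. Of 34 tested, 28 were lower, 20 of them at least 2-fold, and 0 were higher. In bulk RNA, fewer cells in S phase and less RNA per cell cannot be told apart. RRM2, the regulated subunit of ribonucleotide reductase, had 103 and 133 CPM in the siControl libraries and 29.2 and 32.2 CPM in the siFOXA1 libraries (log2 fold change -1.94 ± 0.19, adjusted p = 2.03e-09). The large subunit RRM1 had 469 and 446 against 217 and 216 CPM (log2 fold change -1.08 ± 0.12, adjusted p = 4.32e-08). Both fell to under 50% of the control mean. TYMS, which makes thymidylate, had 94.4 and 128 CPM in the siControl libraries and 19.6 and 33.3 CPM in the siFOXA1 libraries (-2.07 ± 0.24, adjusted p = 7.05e-08). The helicase subunit MCM2 had 152 and 168 against 58.7 and 64.2 CPM (log2 fold change -1.38 ± 0.18, adjusted p = 3.82e-07), and MCM4 of the same ring had 539 and 456 against 266 and 221 CPM (log2 fold change -1.03 ± 0.13, adjusted p = 5.96e-07). The sliding clamp PCNA had 105 and 136 against 39.8 and 61.7 CPM (-1.25 ± 0.20, adjusted p = 2.07e-05). All 34 fold changes were below 0, from -2.07 to -0.36. Without 1 library, between 21 and 24 members were called lower.

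Of 40 tested genes of mitosis, 37 fell, 28 of them at least 2-fold, and 0 rose. MKI67, the chromosome surfactant Ki-67, had 403 and 302 CPM in the siControl libraries and 80.8 and 70.5 CPM in the siFOXA1 libraries (log2 fold change -2.22 ± 0.16, adjusted p = 2.08e-12). TOP2A, the DNA topoisomerase of dividing cells, had 1425 and 1267 CPM in the siControl libraries and 605 and 431 CPM in the siFOXA1 libraries (-1.38 ± 0.12, adjusted p = 1.22e-10). The condensin subunit SMC4 had 1008 and 942 against 469 and 476 CPM (log2 fold change -1.04 ± 0.11, adjusted p = 4.57e-09). These 3 genes, which shape chromosomes, showed no overlap between the groups. The kinetochore protein CENPF had 554 and 418 against 206 and 161 CPM (log2 fold change -1.40 ± 0.15, adjusted p = 7.09e-09). The ubiquitin-conjugating enzyme UBE2C had 154 and 180.5 against 63.6 and 51.5 CPM (log2 fold change -1.54 ± 0.17, adjusted p = 1.57e-08). The mitotic cyclin CCNB2 had 104 and 123 against 29 and 32.2 CPM (log2 fold change -1.89 ± 0.21, adjusted p = 1.92e-08), and the checkpoint target CDC20 had 109 and 117 against 41.4 and 35.8 CPM (log2 fold change -1.54 ± 0.17, adjusted p = 3.46e-08). ECT2, an exchange factor of cytokinesis, was the member with the highest fold change, was not called and overlapped between the groups (132 and 115 against 115 and 136 CPM, log2 fold change 0.03 ± 0.15, adjusted p = 0.939). The list median was -1.21 and lay between -1.33 and -1.07 when 1 library was left out.

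Promoters of these genes are shown because E2F factors and the cell cycle genes homology region (CHR) are known to time their expression. The E2F site, searched as TTTCCCGC or TTTGGCGC on both strands, was in 14 of 30 promoters of replication genes (46.7%), 6.35% of genes called lower, 2.4% of genes called higher and 3.66% of genes not called, beside 2.31% of all promoters in the table. The CHR, searched as TTTGAA or TTCGAA on both strands, was in 26 of 35 promoters of mitotic genes (74.3%), 16.2% of genes called lower, 10.4% of genes called higher and 10.7% of genes not called, beside 16.6% of all promoters. Printed first are 5 replication genes with small p and an E2F match before the start. After them come 5 mitotic genes with small p and a CHR match, with the match in capitals. Not every gene of these lists was open to this choice, so a gene of smaller p with a match can be missing.
TYMS (chr18:657589-657646, plus strand): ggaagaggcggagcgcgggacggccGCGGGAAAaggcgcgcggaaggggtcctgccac
MCM3 (chr6:52284884-52284941, minus strand): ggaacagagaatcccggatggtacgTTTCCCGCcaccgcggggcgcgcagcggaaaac
MCM7 (chr7:100101552-100101609, minus strand): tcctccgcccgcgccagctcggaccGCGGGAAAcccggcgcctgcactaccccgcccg
PCNA (chr20:5126649-5126706, minus strand): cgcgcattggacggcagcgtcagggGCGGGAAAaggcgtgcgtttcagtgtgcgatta
CDT1 (chr16:88803729-88803786, plus strand): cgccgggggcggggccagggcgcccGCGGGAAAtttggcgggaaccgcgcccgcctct
MKI67 (chr10:128126424-128126477, minus strand): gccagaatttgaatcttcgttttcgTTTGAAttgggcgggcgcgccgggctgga
TOP2A (chr17:40418017-40418072, minus strand): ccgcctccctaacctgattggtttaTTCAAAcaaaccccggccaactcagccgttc
SMC4 (chr3:160399550-160399605, plus strand): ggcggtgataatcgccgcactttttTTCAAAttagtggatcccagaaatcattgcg
CCNB2 (chr15:59105092-59105145, plus strand): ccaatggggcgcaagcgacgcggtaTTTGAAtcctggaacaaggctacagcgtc
CDC20 (chr1:43358891-43358946, plus strand): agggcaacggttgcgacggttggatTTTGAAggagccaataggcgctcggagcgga
The forkhead motif TGTTTAC or TGTTTGC was in 5.03% of promoters of genes called higher, 3.72% of genes called lower and 4.77% of genes not called. The AP-1 site TGANTCA was in 6.67%, 2.96% and 4.78%. Of the effector promoters, 5 of 41 (12.2%) held the forkhead motif and 8 of 41 (19.5%) the AP-1 site. Each was in 1 of 30 replication promoters, and 2 and 0 of 35 mitotic promoters held them. Of the replication promoters 0 of 30 held the interferon element, and of the effector promoters 3 of 41 held an E2F site.

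Of 27 tested regulators of G1, 9 fell and 2 rose. TFDP1, the dimerization partner of E2F factors, had 118 and 126 CPM in the siControl libraries and 18.6 and 15.4 CPM in the siFOXA1 libraries (log2 fold change -2.84 ± 0.21, adjusted p = 5.85e-12), and E2F1 had 70.6 and 71.9 against 39.6 and 30.2 CPM (-1.03 ± 0.23, adjusted p = 0.00101). SKP2, which targets CDK inhibitors for degradation, had 109 and 133 CPM in the siControl libraries and 32 and 38.1 CPM in the siFOXA1 libraries (-1.79 ± 0.20, adjusted p = 3.37e-08). These genes act in the commitment to S phase and were lower in both siFOXA1 libraries. The cyclin CCNE2 had 28.3 and 27.7 against 3.47 and 8.62 CPM (log2 fold change -2.22 ± 0.39, adjusted p = 6.93e-05), and CCND1 had 516 and 443 against 354 and 297 CPM (log2 fold change -0.56 ± 0.12, adjusted p = 7.70e-04). MYC had 20.6 and 25 against 9.18 and 9.98 CPM (-1.25 ± 0.33, adjusted p = 0.00602, and 0.0651 without the second siControl library). The CDK inhibitor CDKN1A (p21) had 64.4 and 57.9 CPM in the siControl libraries and 229.8 and 238 CPM in the siFOXA1 libraries (1.93 ± 0.15, adjusted p = 1.91e-11), and the kinase CDK6 had 305 and 212 against 468 and 475 CPM (0.87 ± 0.14, adjusted p = 1.27e-05). In none of these genes did the groups overlap.

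CDKN1A also belongs to a list of p53 target genes, of which 6 of 24 were higher, 0 lower, and the median was 0.26, with 0.43 without the second siFOXA1 library, 0.41 without the first siControl library and 0.12 on the deposited TPM. The BH3-only gene BBC3 (PUMA) had 17.8 and 22.4 CPM in the siControl libraries and 75 and 72.6 CPM in the siFOXA1 libraries (log2 fold change 1.88 ± 0.25, adjusted p = 5.50e-07). SESN2, a stress sensor upstream of mTORC1, had 38.9 and 35.7 against 105 and 75.5 CPM (1.28 ± 0.20, adjusted p = 1.25e-05). The other 3 called members lost their call without 1 library: the death receptor TNFRSF10B without the second siFOXA1 library (adjusted p = 0.104), PLK3 without the second siControl library (0.142), and RPS27L without the first siControl (0.0946) or the first siFOXA1 library (0.0741). Of 21 tested DNA repair and fork protection genes, 12 fell and 0 rose. The fork mediator CLSPN had 142 and 139.7 against 67.9 and 51.9 CPM (-1.23 ± 0.17, adjusted p = 1.95e-06), the mismatch repair subunit MSH6 had 109 and 109 against 48.5 and 50.8 CPM (-1.14 ± 0.18, adjusted p = 1.02e-05), and both carried lower values in the siFOXA1 libraries. BRCA1 had 103 and 88 against 49.4 and 30.8 CPM (-1.25 ± 0.20, adjusted p = 2.36e-05), and the helicase BLM had 26.8 and 25.8 against 7.75 and 5.44 CPM (-1.99 ± 0.35, adjusted p = 7.94e-05).

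No list of histone genes was drawn up, and of such genes 2 were named. HIST1H4C, an H4 histone gene, had 1095 and 799 CPM in the siControl libraries and 310.4 and 211 CPM in the siFOXA1 libraries (log2 fold change -1.86 ± 0.14, adjusted p = 1.15e-11), and the linker histone gene HIST1H1B had 19.5 and 5.79 against 1.63 and 0.454 CPM (-3.54 ± 0.79, adjusted p = 0.00116). Most transcripts of such genes lack a poly-A tail, so oligo-dT priming reads only a part of them. The call of HIST1H1B was lost without the first siControl library (adjusted p = 0.092).

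Among all genes, the smallest p belonged to a decrease in a ribosome biogenesis gene. TRMT112 (chr11:64316460-64318596 in GRCh38.p14), a cofactor of several methyltransferases including one for 18S rRNA, had 793 and 869 CPM in the siControl libraries and 107 and 124 CPM in the siFOXA1 libraries (log2 fold change -2.84 ± 0.12, adjusted p = 9.62e-18). Of 28 tested ribosome biogenesis genes 9 were lower and 1 higher. The nucleolar chaperone NPM1 had 975 and 937 CPM in the siControl libraries and 337 and 346 CPM in the siFOXA1 libraries (log2 fold change -1.48 ± 0.11, adjusted p = 3.28e-12). Nucleolin, NCL, had 1743 and 1609.9 against 1160.2 and 899 CPM (log2 fold change -0.70 ± 0.10, adjusted p = 5.21e-06), and FBL, the rRNA 2′-O-methyltransferase fibrillarin, had 336 and 259.7 against 157 and 102 CPM (-1.20 ± 0.16, adjusted p = 5.25e-07). NSA2, a factor of large-subunit assembly outside the list, had 802 and 775 against 295 and 306 CPM (-1.39 ± 0.11, adjusted p = 2.26e-11).

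The ribosomal protein genes did not fall as a group. Of 78 tested, 11 were lower and 4 higher, 1 of them at least 2-fold, and the median was -0.07. RPS2 of the small subunit was that exception, with 2789 and 2675 CPM in the siControl libraries and 786 and 777 CPM in the siFOXA1 libraries (log2 fold change -1.81 ± 0.11, adjusted p = 4.03e-14). RPL10 of the large subunit had 598 and 648 against 319.6 and 415 CPM (log2 fold change -0.76 ± 0.12, adjusted p = 2.09e-05), and RPL12 had 985 and 1008 against 718 and 671 CPM (log2 fold change -0.52 ± 0.10, adjusted p = 2.48e-04). The 4 higher members had log2 fold changes of at most 0.34, and 0 of the 4 were called higher without the first siControl library, on library size alone or on the deposited TPM. RPS2, NPM1 and other genes of this kind have near-identical processed copies with which the counting could split reads, so their levels are uncertain. Of 32 translation factors 2 were higher and 4 lower, and 2 were lower without the second siControl or the first siFOXA1 library. EIF4EBP1, an inhibitor of cap-dependent initiation, had 24.7 and 17.4 against 6.12 and 3.86 CPM (-2.07 ± 0.37, adjusted p = 1.02e-04). PABPC4, a cytoplasmic poly-A binding protein outside that list, had 529 and 550.2 CPM in the siControl libraries and 141 and 130.4 CPM in the siFOXA1 libraries (-1.99 ± 0.14, adjusted p = 9.51e-13).

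Of 29 tested splicing factors and heterogeneous nuclear ribonucleoproteins, 15 fell and 0 rose, none of them by 2-fold, with a median of -0.35. HNRNPF, which binds G-rich RNA, had 237 and 304 against 117 and 155 CPM (log2 fold change -0.99 ± 0.15, adjusted p = 1.18e-05). HNRNPA1, a splicing repressor, had 374 and 359 against 209 and 231 CPM (log2 fold change -0.74 ± 0.13, adjusted p = 9.28e-05). SRSF1, which binds exonic enhancers, had 93.7 and 126 against 67.7 and 46.3 CPM (log2 fold change -0.94 ± 0.20, adjusted p = 6.03e-04), and SRSF7 had 168 and 169 against 101 and 109 CPM (log2 fold change -0.68 ± 0.14, adjusted p = 7.54e-04). Without 1 library, between 10 and 12 members were called lower.

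**Figure D4:**
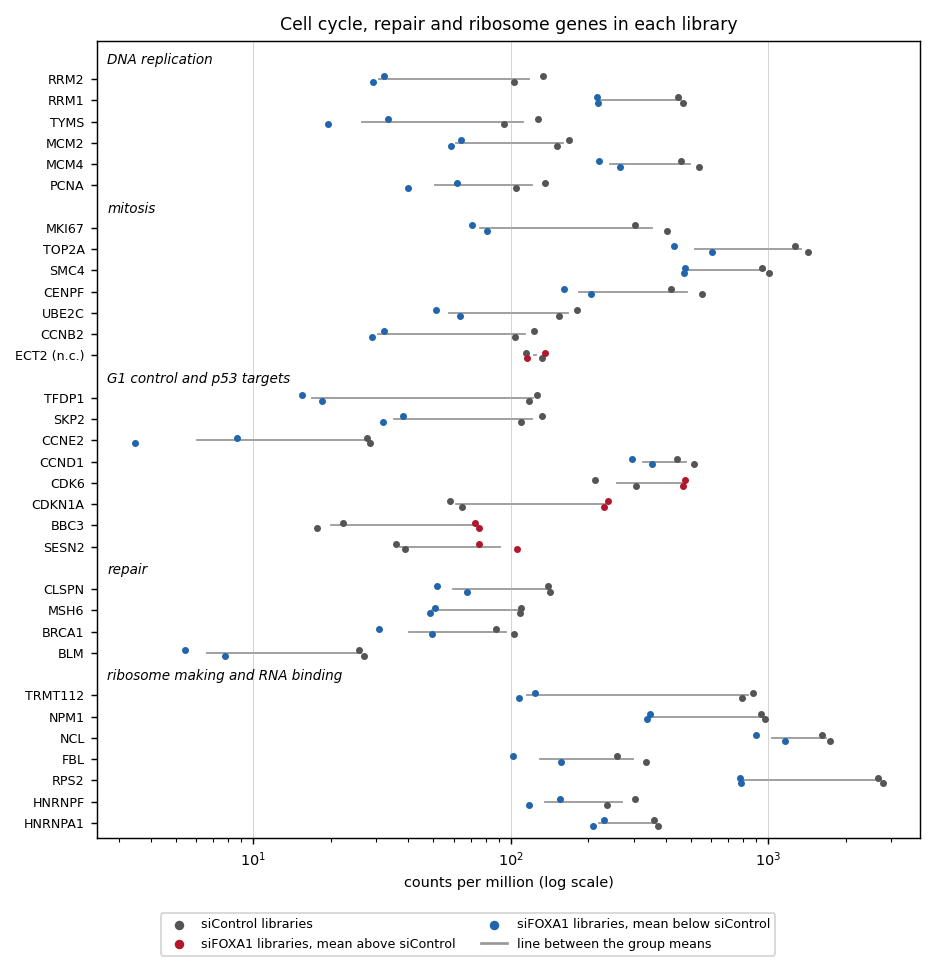
Level of replication, mitosis, G1, repair, ribosome biogenesis and RNA-binding genes (rows) in each of the 4 libraries (horizontal axis, CPM on a log scale). Grey points are siControl libraries, and coloured points are siFOXA1 libraries, red where the mean is higher and blue where it is lower. CDKN1A, CDK6, BBC3 and SESN2 lie to the right of their controls, ECT2 (n.c., not called) overlaps between the groups, and the other genes lie to the left of their controls.

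Of 16 tested transcription factors of luminal epithelium, 4 fell and 0 rose. KLF5, a Krüppel-like factor of proliferating epithelium, had 141 and 136 CPM in the siControl libraries and 62.6 and 51.5 CPM in the siFOXA1 libraries (log2 fold change -1.28 ± 0.17, adjusted p = 1.20e-06). The forkhead gene FOXQ1 had 26.6 and 32.9 against 8.57 and 7.71 CPM (-1.87 ± 0.36, adjusted p = 2.31e-04). The ETS factor ELF3 had 79.9 and 102 against 58.1 and 40.8 CPM (log2 fold change -0.87 ± 0.21, adjusted p = 0.00272), and its relative EHF had 47.4 and 30.9 against 16.5 and 25.2 CPM (log2 fold change -0.91 ± 0.29, adjusted p = 0.0228). The ELF3 call was lost without the second siControl (0.0735) or the second siFOXA1 library (0.0876), and the EHF call without the first siControl (0.329) or the first siFOXA1 library (0.231). The luminal master factors were not called. GATA3 had 12.8 and 11.6 against 11.8 and 8.62 CPM (log2 fold change -0.25 ± 0.42, adjusted p = 0.763), and PPARG had 29.7 and 27.7 against 14.3 and 19.1 CPM (log2 fold change -0.79 ± 0.34, adjusted p = 0.112). Of 13 tested luminal and umbrella-cell markers 1 was higher and 2 lower, and between 0 and 1 were higher and 1 and 3 lower when a library was left out.

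In a chosen list of 15 tested forkhead genes, which held neither FOXA1 nor FOXQ1, 7 were called lower and 0 higher. FOXM1, the activator of G2/M genes, had 153 and 133 CPM in the siControl libraries and 61.8 and 48.8 CPM in the siFOXA1 libraries (log2 fold change -1.37 ± 0.19, adjusted p = 1.42e-06). FOXC1 had 65.5 and 84 against 25.9 and 44.7 CPM (log2 fold change -1.09 ± 0.23, adjusted p = 5.56e-04), and FOXO1, a target of insulin signals, had 24 and 26.6 against 9.58 and 9.98 CPM (log2 fold change -1.37 ± 0.32, adjusted p = 0.00202). FOXA2, the paralog of FOXA1, had 63 and 20 counts under siControl and 13 and 0 under siFOXA1 (adjusted p = 0.0379), and this call was lost without the first siControl (0.41) or the second siFOXA1 library (0.292). Only FOXM1, FOXC1 and FOXO1 of these 7 genes were called whichever of the 4 libraries was left out, and 4 were called without the first siControl or the second siFOXA1 library.

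The keratins did not move together. KRT17, a keratin of basal and activated keratinocytes, had 906 and 804 CPM in the siControl libraries and 2464 and 2308 CPM in the siFOXA1 libraries (log2 fold change 1.48 ± 0.10, adjusted p = 1.19e-12), and KRT6B, its partner in wounded epithelium, had 42.7 and 49.3 CPM in the siControl libraries and 176 and 187 CPM in the siFOXA1 libraries (1.98 ± 0.19, adjusted p = 1.03e-09). Both were more than 2-fold above their controls, while other keratins fell. KRT5 of the basal layer had 819.8 and 832 against 593 and 609 CPM (log2 fold change -0.46 ± 0.11, adjusted p = 0.00193), and KRT15 had 49.5 and 50.5 against 9.79 and 19.1 CPM (log2 fold change -1.80 ± 0.32, adjusted p = 6.72e-05). The luminal keratin KRT18 had 756 and 743 against 483 and 416 CPM (-0.74 ± 0.11, adjusted p = 5.49e-06). KRT13, a keratin of stratified non-cornified epithelium, had 12.1 and 15.8 against 0.612 and 3.40 CPM (-2.81 ± 0.62, adjusted p = 0.00109). Over the list of basal keratins and adhesion genes 6 of 23 were higher and 2 lower. Of 16 squamous differentiation genes 2 were lower, KRT13 and the serpin SERPINB13 (176 and 162 against 47.5 and 68 CPM, -1.55 ± 0.20, adjusted p = 5.14e-07), and 0 were higher, with 5 lower without the second siFOXA1 library. The median of that list was -0.77 in the first batch and 0.11 in the second.

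Of 19 tested integrins, laminins and other matrix genes 7 rose and 0 fell, with a median of 0.53. Among basal adhesion genes, LAMB3, a chain of the basement membrane laminin-332, had 257 and 265 CPM in the siControl libraries and 758 and 879 CPM in the siFOXA1 libraries (log2 fold change 1.65 ± 0.11, adjusted p = 9.93e-13). Its siFOXA1 libraries were both more than 2-fold above both controls. ITGB6, a subunit of the integrin that activates latent TGF-beta, had 23.2 and 22.8 against 79.1 and 73.5 CPM (1.73 ± 0.22, adjusted p = 2.98e-07), and ITGA5 of the fibronectin receptor had 69.5 and 80.1 against 222 and 173 CPM (1.40 ± 0.17, adjusted p = 1.39e-07). ITGA3, the laminin-332 receptor chain, had 121 and 132 against 244 and 231 CPM (0.91 ± 0.14, adjusted p = 1.20e-05). FN1, fibronectin itself, had 34.4 and 35.1 against 91.8 and 97.8 CPM (1.45 ± 0.24, adjusted p = 2.23e-05), and it was the single call among 12 epithelial-mesenchymal markers. The count of 7 fell to 4 without the second library of either group and on the deposited TPM, where the median was 0.33.

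Proteases of the matrix and the plasminogen system were called in both directions, 5 of 23 higher and 4 lower. ADAM8, a membrane metalloprotease, had 211 and 218 CPM in the siControl libraries and 854 and 792 CPM in the siFOXA1 libraries (log2 fold change 1.94 ± 0.12, adjusted p = 2.57e-13). PLAUR, the urokinase receptor, had 102 and 117 CPM in the siControl libraries and 343 and 406 CPM in the siFOXA1 libraries (1.78 ± 0.15, adjusted p = 3.07e-11). The membrane collagenase MMP14 had 84.2 and 90.4 against 205 and 169.7 CPM (1.10 ± 0.16, adjusted p = 3.54e-06), whereas the secreted collagenase MMP1 had 114 and 186 against 53.2 and 64.9 CPM (-1.35 ± 0.30, adjusted p = 0.00147). When 1 library was left out, 1 (without the second siControl library) or 2 members were called lower. The MMP1 call was lost without the second siControl library (0.0731) and in DESeq2 (0.0984).

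ID1, a target of BMP signals that blocks basic helix-loop-helix factors, had 271 and 366 CPM in the siControl libraries and 41.6 and 44.9 CPM in the siFOXA1 libraries (log2 fold change -2.88 ± 0.20, adjusted p = 9.51e-13), and its relative ID3 had 154 and 153 against 70.4 and 95.3 CPM (-0.89 ± 0.18, adjusted p = 3.50e-04). These were the 2 calls among 16 TGF-beta and BMP genes. INHBA, the activin A subunit, had 108 and 83.6 CPM in the siControl libraries and 436 and 391 CPM in the siFOXA1 libraries (2.11 ± 0.15, adjusted p = 2.44e-12), and IGFBP3, which binds insulin-like growth factors, had 179 and 211 CPM in the siControl libraries and 27.5 and 38.1 CPM in the siFOXA1 libraries (-2.58 ± 0.20, adjusted p = 8.02e-12). Of 19 EGFR ligands and MAPK output genes 4 were lower and 0 higher, among them PHLDA1 (231 and 226 against 93.2 and 100.3 CPM, adjusted p = 1.20e-07) and the ETS factor ETV4 (15.9 and 21 against 3.26 and 2.27 CPM, adjusted p = 7.70e-05). Of the YAP-TEAD targets 4 of 16 were higher and 2 lower, with CYR61 at 167 and 215 against 352 and 477 CPM (1.12 ± 0.15, adjusted p = 1.37e-06). Without the first siControl or the second siFOXA1 library 2 YAP-TEAD targets were higher, and without the first siFOXA1 library 2 of the EGFR and MAPK genes were lower.

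Among AP-1 and basal network factors, 5 of 16 were higher and 2 lower. ATF3, a stress-induced factor, had 11.3 and 13.8 against 44 and 54.4 CPM (log2 fold change 1.97 ± 0.31, adjusted p = 1.46e-05), and JUN had 166 and 158 against 353 and 304 CPM (1.02 ± 0.16, adjusted p = 1.60e-05). HMGA2, an architectural chromatin protein, had 350.3 and 327 against 174 and 179 CPM (-0.94 ± 0.13, adjusted p = 7.68e-07). Of 12 S100 calcium-binding proteins, S100A16 and S100A13 were higher and S100A9, a subunit of calprotectin, was lower, with 165 and 125 against 70.6 and 52.2 CPM (-1.24 ± 0.18, adjusted p = 4.56e-06). Tight junction genes were higher in 5 of 13 cases and lower in 1, with the smallest p for F11R (JAM-A) with 167 and 186 against 325 and 378 CPM (0.99 ± 0.13, adjusted p = 1.11e-06) and CLDN1 with 121 and 141 against 207 and 247 CPM (0.79 ± 0.14, adjusted p = 8.18e-05), and 3 were higher and 0 lower without the first siControl library.

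**Figure D5:**
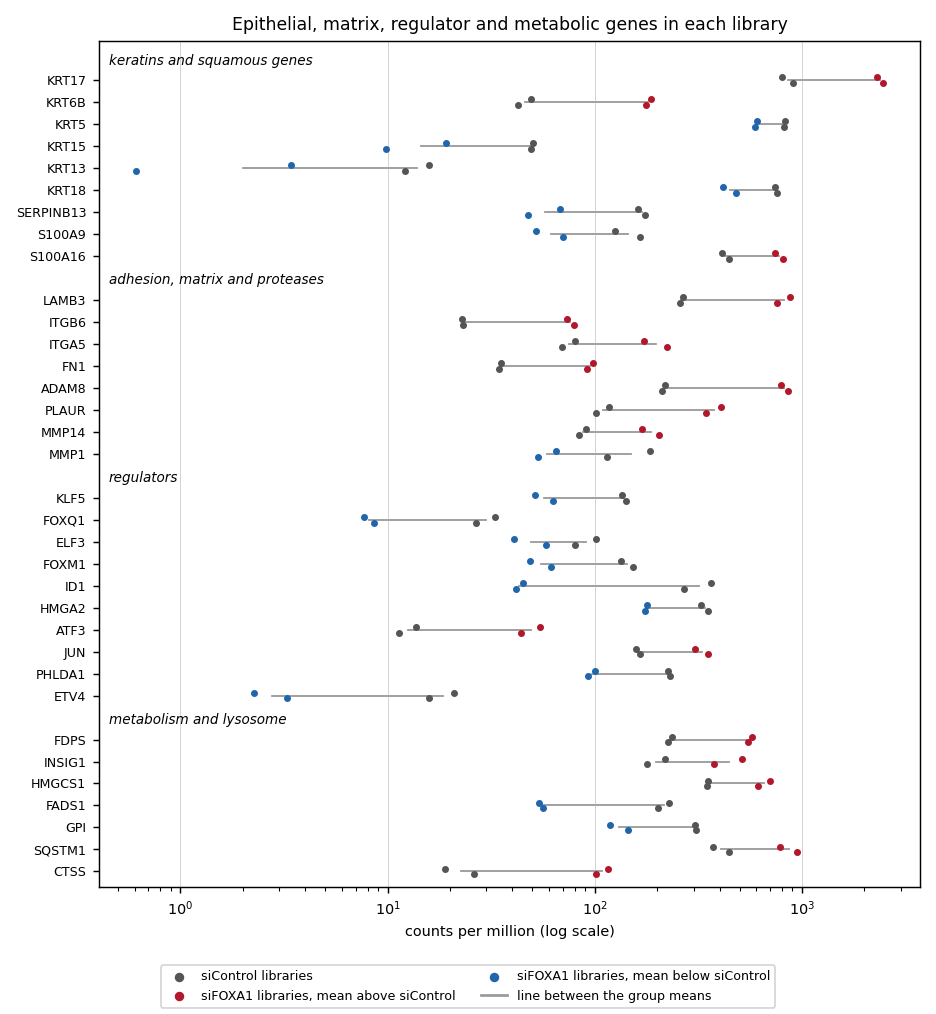
Level of keratin, adhesion, protease, regulator and metabolic genes (rows) in each of the 4 libraries (horizontal axis, CPM on a log scale). Grey points are siControl libraries, and coloured points are siFOXA1 libraries, red where the mean is higher and blue where it is lower. KRT17 and KRT6B lie to the right of their controls and KRT5, KRT15, KRT13 and KRT18 to the left, and MMP14 and MMP1 lie on opposite sides.

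Of 31 tested genes of cholesterol and fatty acid synthesis 12 rose and 1 fell, with a median of 0.41. FDPS, farnesyl diphosphate synthase, had 225 and 235 CPM in the siControl libraries and 548 and 576 CPM in the siFOXA1 libraries (log2 fold change 1.29 ± 0.13, adjusted p = 1.66e-09). INSIG1, the sterol-regulated anchor of SCAP, had 179 and 218 against 377 and 511 CPM (1.16 ± 0.15, adjusted p = 7.20e-07), and HMGCS1, which makes HMG-CoA, had 348 and 352 against 613 and 701 CPM (0.91 ± 0.13, adjusted p = 3.16e-06). The gene that fell, FADS1, is the delta-5 fatty acid desaturase and had 202 and 229 CPM in the siControl libraries and 56.5 and 54 CPM in the siFOXA1 libraries (-1.96 ± 0.19, adjusted p = 1.66e-09). Without the first siControl library, and on the deposited TPM, 7 members were called higher, and the median on TPM was 0.27.

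ER chaperones and unfolded protein response genes were higher in 12 of 24 cases and lower in 1. CALR, calreticulin, had 1116 and 1204 against 1549.9 and 1787 CPM (log2 fold change 0.52 ± 0.10, adjusted p = 1.33e-04), DNAJC3 had 72 and 82.1 against 127 and 149 CPM (0.84 ± 0.16, adjusted p = 2.27e-04), and HSPA5 (BiP), the main ER chaperone, had 1190.0 and 1167 against 907 and 825 CPM (-0.44 ± 0.10, adjusted p = 0.00218) and was the one that fell. On the deposited TPM, where the call of CALR was lost (adjusted p = 0.0561), 2 members were called higher. Without the first siControl or the second siFOXA1 library 8 were. Lysosome and autophagy genes were higher in 10 of 29 cases and lower in 0, with 5 higher without the first siControl library and 3 on the deposited TPM. The protease CTSS, cathepsin S, had 26.1 and 19 CPM in the siControl libraries and 102 and 116 CPM in the siFOXA1 libraries (2.27 ± 0.24, adjusted p = 1.10e-08), and the receptor of selective autophagy SQSTM1 (p62) had 444 and 373 against 949.9 and 786 CPM (1.09 ± 0.13, adjusted p = 2.01e-07).

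Regulators of cell death were higher in 8 of 29 cases and lower in 1, and 5 were higher without the second library of either group or on the deposited TPM. CASP4, the inflammatory caspase that senses lipopolysaccharide, had 46.1 and 38.5 against 118 and 119 CPM (log2 fold change 1.49 ± 0.18, adjusted p = 1.84e-07), TNFRSF10A, a receptor of TRAIL, had 47.2 and 43.3 against 101 and 102 CPM (1.17 ± 0.19, adjusted p = 2.31e-05), and PMAIP1 (NOXA) had 134 and 159 against 231 and 295 CPM (0.85 ± 0.14, adjusted p = 4.42e-05). BAD, a BH3-only protein, had 97.6 and 89 against 41.4 and 48.8 CPM (-1.05 ± 0.19, adjusted p = 8.36e-05).

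Of 13 protein-coding mitochondrial genes 4 were higher and 0 lower, led by MT-ND1 with 1700.3 and 2191 against 2918 and 3586 CPM (log2 fold change 0.74 ± 0.12, adjusted p = 1.66e-05). Without the first siControl library 2 were higher and 1 lower, and on the deposited TPM 1 was higher. Of 74 nuclear-encoded respiratory chain genes 10 were higher and 5 lower, but 4 were higher without the first siControl library, 6 without the second siFOXA1 library and 1 on the deposited TPM. Among 27 glycolysis and hypoxia genes 3 were higher and 7 lower, and 3 were lower without the second siControl library and 4 without the first siControl or the second siFOXA1 library. GPI, phosphoglucose isomerase, had 308 and 304 CPM in the siControl libraries and 144 and 118 CPM in the siFOXA1 libraries (-1.22 ± 0.14, adjusted p = 2.90e-08), PFKFB3, which makes the activator of phosphofructokinase, had 52.7 and 50.3 against 12.2 and 19.1 CPM (-1.72 ± 0.30, adjusted p = 5.13e-05), and the vasoactive peptide gene ADM had 13 and 16.2 against 51.2 and 58.1 CPM (1.90 ± 0.29, adjusted p = 9.92e-06). NRF2 antioxidant genes (3 of 23 higher, 6 lower), ATF4 targets and tRNA synthetases (5 of 29 higher, 4 lower), the cytoskeleton (7 of 27 higher, 7 lower) and proteasome subunits (2 of 31 higher, 0 lower) gave calls without a common direction or few calls. Leaving out 1 library changed these counts: 2 NRF2 genes were lower without the second siControl or the first siFOXA1 library, 2 ATF4 targets were higher without the first siFOXA1 library, 4 cytoskeleton genes were higher without the first siControl library, and 4 proteasome subunits were higher without either siFOXA1 library. On the deposited TPM 2 cytoskeleton genes were higher. In the cytoskeleton list MYL9, a myosin light chain of contractile cells, had 137 and 124 against 40.2 and 25 CPM (-2.0 ± 0.19, adjusted p = 7.96e-10) and TUBA1B had 2837 and 2644 against 1520.1 and 1418 CPM (-0.90 ± 0.09, adjusted p = 3.63e-09). WARS, the tryptophanyl-tRNA synthetase, led the tRNA synthetases with 175 and 162 against 343 and 407 CPM (1.15 ± 0.15, adjusted p = 4.83e-07).

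Several of the largest decreases lay outside all lists. PPDPF, named for pancreatic progenitor differentiation, had 354 and 379 CPM in the siControl libraries and 36.7 and 27.4 CPM in the siFOXA1 libraries (log2 fold change -3.51 ± 0.19, adjusted p = 6.60e-15). CHCHD10, a mitochondrial intermembrane protein, had 38.3 and 23.2 CPM in the siControl libraries and 1.02 and 2.27 CPM in the siFOXA1 libraries (-4.23 ± 0.41, adjusted p = 1.29e-09). SLC39A6, a zinc transporter, had 86.3 and 92.6 CPM in the siControl libraries and 9.79 and 13.8 CPM in the siFOXA1 libraries (-2.92 ± 0.23, adjusted p = 1.48e-11). In each of these 3 genes the higher siFOXA1 library was below the lower control. FBP1, the gluconeogenic fructose bisphosphatase, had 14.2 and 6.39 against 0.204 and 0.907 CPM (-4.18 ± 0.95, adjusted p = 0.0015). The matrix gene MXRA5 had 22.3 and 19.8 against 3.06 and 1.36 CPM (-3.22 ± 0.46, adjusted p = 3.02e-06), and ANK1, an ankyrin of the membrane skeleton, had 17.9 and 19.2 against 3.06 and 1.36 CPM (-3.04 ± 0.50, adjusted p = 2.36e-05). The same order of libraries held for these 3.

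Among the largest increases outside the lists, TP53INP2, a protein of autophagosome formation, had 3.21 and 2.40 CPM in the siControl libraries and 36.9 and 50.6 CPM in the siFOXA1 libraries (log2 fold change 3.95 ± 0.41, adjusted p = 4.72e-09), and the adhesion molecule ICAM2 had 1.70 and 0.399 against 15.3 and 18.6 CPM (3.97 ± 0.74, adjusted p = 1.47e-04). STX3, a syntaxin of apical membrane traffic, had 72.9 and 88.4 CPM in the siControl libraries and 320.2 and 316 CPM in the siFOXA1 libraries (1.98 ± 0.15, adjusted p = 4.58e-12). DDX60L, a relative of the antiviral helicase DDX60, had 49.3 and 41.9 CPM in the siControl libraries and 194 and 267 CPM in the siFOXA1 libraries (2.34 ± 0.18, adjusted p = 6.57e-12).

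Some genes went from near absence to clear counts, or the reverse. Of the genes called higher, 12 had at most 3 counts in each siControl library, and of those called lower, 26 had at most 3 in each siFOXA1 library. ABCC9, a regulatory subunit of potassium channels, had 0 and 1 counts under siControl and 62 and 84 under siFOXA1 (adjusted p = 1.19e-05). ODAPH, a protein of enamel, had 0 and 0 counts under siControl and 52 and 24 under siFOXA1, which is at least 13.8-fold higher against a floor of 3 counts per library (adjusted p = 0.00218). TMEM140 had 0 and 3 counts under siControl and 38 and 55 under siFOXA1 (adjusted p = 0.00189). In the other direction TMEM25 had 37 and 18 counts under siControl and 0 and 0 under siFOXA1, at least 8.19-fold lower against the same floor (adjusted p = 0.0023), and the MAPK feedback inhibitor SPRY1 had 40 and 18 counts under siControl and 1 and 2 under siFOXA1 (adjusted p = 0.00336). The SPRY1 call was lost without the first siControl library (0.0517). AGR2, a secretory-pathway disulfide isomerase of luminal epithelia, had 23 and 30 counts under siControl and 0 and 3 under siFOXA1 (adjusted p = 0.0209), and its call was lost without the second siControl (0.0916) or the first siFOXA1 library (0.158).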

How the data were processed

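RNA of SCaBER cells was profiled by 3′ RNA-seq (QuantSeq FWD) without a stated molecular identifier. The floors of 3 counts cover counting error only, whereas the standard errors include the spread between libraries estimated by the fit. The authors deposited raw counts per gene and TPM. Per the labels they mapped reads with STAR 2.6.1a to hg38 with GENCODE annotation, whereas the paper's methods name hg19, and gene identifiers were used here. Strand was inferred by their pipeline, so antisense genes are uncertain. The deposited counts were tested with edgeR 4.0.16 (R 4.3.3) after TMM scaling: genes passing a minimum count of 10 and total of 15 (filterByExpr) entered a quasi-likelihood fit with 6 groups and 12 SCaBER libraries, with the contrast siFOXA1 minus siControl and Benjamini-Hochberg adjustment over 13129 genes. Of 58721 genes, 36873 had no count in these libraries. Levels are TMM-scaled CPM, ± after a log2 fold change is its standard error, and the biological coefficient of variation was 21.6%. The fit was also run on counts simulated from its own levels and spread, and that outcome is not reported here.

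Groups came from the labels. Nothing says that the libraries of a group came from separate cultures, so p-values measure the spread between these libraries. The chi-square per gene between replicates was 7.19 in siControl and 8.99 in siFOXA1, above the level of sampling noise. In the labels equal replicate numbers mark an experiment batch and therefore pair the samples. Their deviations correlated by 0.0648.

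The genes to be named included FOXA1, ZBED2, STAT2, IRF9 and CD274. To these came the 12 called genes with the smallest p in each direction whose siFOXA1 libraries both lay beyond both siControl libraries. For genes named by that rule alone, the lack of overlap between the groups was fixed by the choice. In each direction, the 6 most abundant called genes with at most 3 counts in each library of 1 group were added. So were the 10 largest called fold changes in each direction among genes of at least 10 CPM. Per list, the rule took the 5 smallest p, all members of lists of at most 20 genes and the 2 most abundant. It also took up to 4 called members that went against the median. Which of these were described, and any other list member named, were chosen after values were seen. The members and lists were chosen with earlier results of these data known. Promoters came from RefSeq (GRCh38.p14), motif searches used both strands, and TTCGAA and its reverse complement are the same letters. Alternatives were RLE factors, library size alone, DESeq2 1.42.0, no low-count filter, a minimum count of 30, the 4 libraries alone, the replicate as a block, limma 3.58.1 on the deposited log2(TPM + 1) and log2(TPM + 0.1), and each library left out. Some genes under this rule are not reported here.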

Additional observations from a re-analysis of the deposited data

How the results depend on the processing

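All 2341 called genes kept their direction in every alternative in which they had a value. The number of calls ranged from 1608 to 2631. On the deposited log2(TPM + 1) 582 genes were called higher, and on log2(TPM + 0.1) 553 were, against 1144 from the counts. These values are not centred, and the median of all genes lay at -0.13 and -0.15. With the batch as a replicate block 2631 genes were called, 2336 of them among the 2341, and no call of a gene named above was lost. Of those 2341 calls, between 1500 and 1661 remained when 1 of the 4 libraries was left out.

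Of the uncalled genes named above, ECT2, IRF1 and ZBED2 turned sign under some alternatives, and uncalled genes outside the text were not counted. The log2 fold change of ECT2 was -0.050 with library size alone, -0.11 on log2(TPM + 1) and -0.11 on log2(TPM + 0.1), and lay between -0.098 and 0.142 without 1 library. That of IRF1 was -0.054, -0.11 and -0.11 and lay between -0.035 and 0.082. That of ZBED2 was -0.031, -0.088 and -0.092 and lay between -0.0051 and 0.093. The cause was not tested. The uncalled effector SHISA5 was called with the replicate block (adjusted p = 0.0441 in edgeR).

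With 2 libraries a group and a lone library assumed to vary like the other groups when its partner was left out, changes of genes under 10 CPM were rarely detectable. One siRNA was used against FOXA1, and equal changes in RNA per cell would not be seen after scaling.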
